A study of Mus musculus with 4 samples.

Results

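Polycomb repressive complex 1 (PRC1) was examined through 10 genes that encode its subunits, Rnf2, Ring1, Pcgf1, Pcgf2, Pcgf3, Pcgf5, Pcgf6, Cbx7, Rybp and Kdm2b, chosen by gene symbol from the 24026 genes of the expression table. RNAseq of polyA RNA was performed on untreated F123-ESCs, a male hybrid mouse line with S129 chromosomes from the mother and CAST chromosomes from the father, in 4 libraries that form 1 group. The cells had been grown on feeder fibroblasts and passaged without them before harvest. Each gene has 8 values, an RPKM (reads per kilobase of gene length, scaled to the total of reads) of each allele in each library, made from reads that cover a SNP between the strains. Since S129 is always maternal in this line, strain and parent of origin cannot be told apart, and the labels do not say whether the libraries are separate cultures, so p-values measure only the spread between these libraries.

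PRC1 is a histone-modifying complex that places a single ubiquitin on histone H2A and helps to keep developmental genes silent in ESCs. Every PRC1 holds a catalytic RING subunit, RING1 or RNF2 (also called RING1B), paired with 1 of 6 PCGF proteins, and the PCGF protein sets which other subunits join. Canonical complexes contain PCGF2 or PCGF4 (encoded by Bmi1), PHC proteins and a CBX protein that reads methylated histone H3. Variant complexes contain RYBP or its homologue YAF2 instead of the CBX protein of canonical complexes. The variant complex of PCGF1 reaches unmethylated CpG islands through KDM2B.

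The totals of reads on an allele ran from 16716721 to 28772351, and replicate 4 was the shallowest library. The 8 pluripotency markers were all above 1 RPKM, from 29.5 RPKM for Pou5f1 to 7111 RPKM for Dppa5a. Of 4 primitive endoderm markers, 3 were also at 1 RPKM or more, with Pdgfra highest at 3.31 RPKM. Of 4 early differentiation markers, 3 were as well, with T highest at 8.89 RPKM. Of 6 fibroblast markers, 5 were at 1 RPKM or more. The summed level of the 6 was 178 to 223 RPKM in a library, of which Col1a2 held 166 RPKM on average. Col1a1 was at 5.68 RPKM, Thy1 at 1.57 RPKM and Lum at 0.0462 RPKM. The part of feeder RNA in the values below was not tested. In bulk RNA a smaller number of expressing cells and less RNA per cell cannot be told apart.

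RefSeq start regions of the genes, from 250 bases before to 50 bases after the start, were at hand for 8 of the 10 genes, with 13 regions in all, and not for Pcgf1 and Rybp. They are sequences of the GRCm38.p6 reference, which is neither S129 nor CAST. The regions of both catalytic subunits and of both groups of starts of Kdm2b are shown because KDM2B binds CpG, and every CpG (letters CG) is in capitals.
Rnf2 at chr1:151500942-151501241, minus strand: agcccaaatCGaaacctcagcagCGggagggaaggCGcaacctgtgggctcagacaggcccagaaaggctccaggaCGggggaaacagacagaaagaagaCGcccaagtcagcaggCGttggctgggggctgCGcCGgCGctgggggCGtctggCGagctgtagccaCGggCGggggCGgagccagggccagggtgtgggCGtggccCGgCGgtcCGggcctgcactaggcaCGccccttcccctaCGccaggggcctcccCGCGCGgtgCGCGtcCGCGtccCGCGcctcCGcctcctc
Ring1 at chr17:34024631-34024930, minus strand: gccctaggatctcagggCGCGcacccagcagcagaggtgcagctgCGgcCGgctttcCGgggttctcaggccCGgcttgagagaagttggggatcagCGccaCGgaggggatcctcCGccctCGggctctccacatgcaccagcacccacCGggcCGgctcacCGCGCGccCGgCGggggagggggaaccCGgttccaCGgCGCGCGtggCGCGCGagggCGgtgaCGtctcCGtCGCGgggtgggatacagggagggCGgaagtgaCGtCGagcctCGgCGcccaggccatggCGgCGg
Kdm2b, upstream start at chr5:122989050-122989349, minus strand: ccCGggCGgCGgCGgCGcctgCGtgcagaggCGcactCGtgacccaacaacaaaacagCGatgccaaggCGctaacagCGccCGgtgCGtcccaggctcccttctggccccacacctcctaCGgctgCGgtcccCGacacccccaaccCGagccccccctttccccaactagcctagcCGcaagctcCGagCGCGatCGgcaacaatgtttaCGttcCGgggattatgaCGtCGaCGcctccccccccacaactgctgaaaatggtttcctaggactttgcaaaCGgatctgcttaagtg
Kdm2b, internal start at chr5:122900301-122900600, minus strand: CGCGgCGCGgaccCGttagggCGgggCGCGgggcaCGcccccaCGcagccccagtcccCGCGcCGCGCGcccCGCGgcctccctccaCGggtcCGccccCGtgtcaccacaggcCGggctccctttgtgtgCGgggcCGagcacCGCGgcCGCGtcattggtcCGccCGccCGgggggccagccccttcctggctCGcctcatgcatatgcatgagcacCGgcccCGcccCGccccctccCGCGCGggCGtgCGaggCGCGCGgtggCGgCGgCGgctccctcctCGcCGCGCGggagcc
These windows hold 30, 37, 28 and 49 CpG in this order. The 13 regions had a median of 30 CpG, against 7 over all 32851 start regions, and ranged from 5 at an internal start of Pcgf5 to 49 at the internal start of Kdm2b. On either strand, the GC box GGGCGG, which itself contains a CpG, was present in 10 of the 13 regions and in 35.7% of all regions. The letters TATAAA were in 0 of the 13 regions and in 13.6% of all regions. CCAAT was in 4 of 13 and in 37.4% of all, and the E-box CACGTG was in 1 of 13, that of Pcgf2, and in 7.15% of all. A pair of windows at the internal start of Kdm2b shares 283 bases, and with that sequence counted once the 12 regions had a median of 29 CpG, 9 held the GC box and 3 held CCAAT. Such matches describe the windows and are not binding sites.

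All 10 genes were expressed. Their levels, as the mean of both alleles, ran from 4.47 RPKM for Pcgf5 to 69.9 RPKM for Cbx7, and each lay above 65.5% of the genes in the table. The median of the 10 genes was 12.4 RPKM, and that of the 13341 genes tested below was 7.79 RPKM. From 119 to 5721 reads stood behind each of their values. The variation between libraries, as a coefficient of variation of the level, was from 6.71% for Pcgf6 to 20.0% for Rybp, with a median of 9.52% beside 9.66% over the genes tested. Replicate 4 was the lowest library for 6 of the 10 genes, and for 53.5% of the genes tested.

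**Figure D1:**
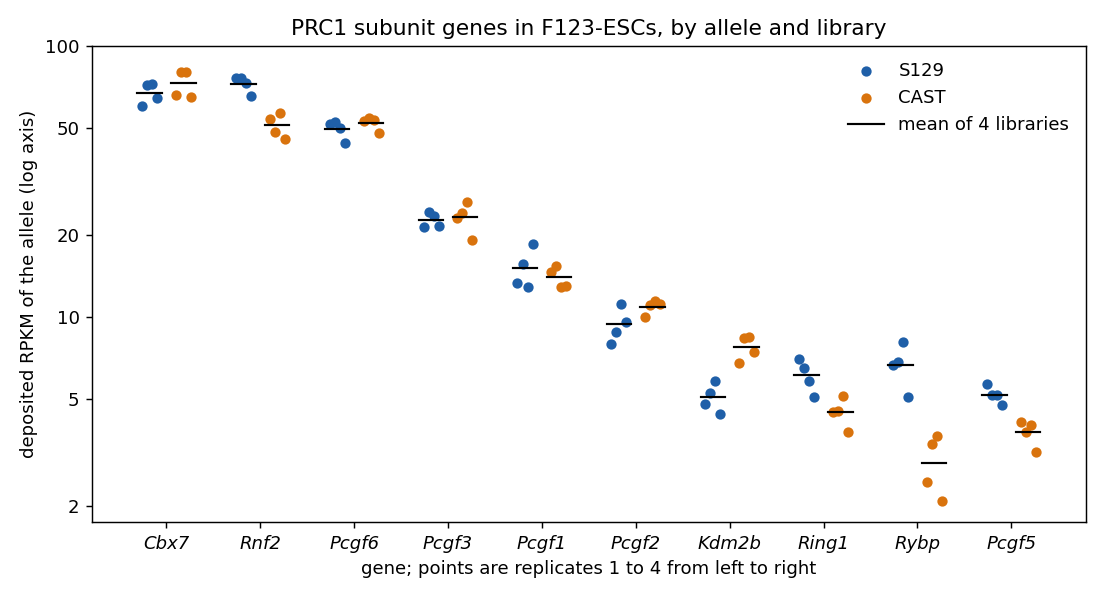
Deposited RPKM (log axis) of the S129 and CAST alleles of each PRC1 subunit gene in replicates 1 to 4, with the mean as a line, ordered by level. The points of both alleles lie apart for Rnf2, Kdm2b, Rybp and Pcgf5 and overlap for the other genes.

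The catalytic subunits differed in level. Rnf2 (ENSMUSG00000026484, chromosome 1, 151458004 to 151500955 in mm10) had 64.9, 62.1, 64.9 and 55.5 RPKM in replicates 1 to 4, a mean of 61.8 ± 4.41 RPKM (SD, n = 4). Ring1 (ENSMUSG00000024325, chromosome 17, 34020792 to 34024680) had 5.73, 5.48, 5.47 and 4.42 RPKM, a mean of 5.28 ± 0.580 RPKM (SD, n = 4). Rnf2 was higher in 4 of 4 libraries, by 3.53 ± 0.067 (log2 with 0.1 RPKM added, SD, n = 4). An exact permutation test that flips the signs of the 4 differences, on both sides, gave p = 0.13, also after adjustment over the 9 pairs of genes compared, and 4 libraries cannot give a smaller one. How many SNPs a transcript holds also enters its RPKM, so these are differences of the deposited values.

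The length by which the authors divided changed the size of this difference. The steps between RPKM values gave back the reads and the length, and for Rnf2 the length was 817 bp, that of the transcript listed first in GENCODE M21, while its annotated exons together span 4127 bp. For Ring1 the lengths were 2034 bp and 3243 bp. Per kilobase of all annotated exons, Rnf2 had 12.2 ± 0.874 and Ring1 3.31 ± 0.364 scaled reads per kilobase (SD, n = 4 each). On this scale Rnf2 was higher by 1.86 ± 0.066 (log2, SD, n = 4), in 4 of 4 libraries. Rnf2 thus made up 92.2% ± 0.347 of the summed level of both genes as deposited, and 78.8% ± 0.806 by exon length (SD, n = 4 each).

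Among the PCGF genes, Pcgf6 had the highest level on both scales. Pcgf6 (ENSMUSG00000025050, chromosome 19, 47033617 to 47050906), whose protein defines the variant complex with MGA and E2F6, had 52.3, 53.3, 51.5 and 45.7 RPKM in replicates 1 to 4. It held 46.6% ± 1.40 (SD, n = 4) of the summed deposited level of the 6 PCGF genes, Bmi1 included. No annotated transcript explained its values, and its reads rest on 2098 bp, the smallest length that made them whole. They are therefore the fewest possible, and its exon-length level of 21.2 ± 1.42 (SD, n = 4) and share of 48.2% ± 1.43 (SD, n = 4) are lower limits.

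Pcgf3 (ENSMUSG00000033623, chromosome 5, 108461232 to 108506976) had 22.3, 24.3, 25.1 and 20.5 RPKM. Pcgf1 (ENSMUSG00000069678, chromosome 6, 83077869 to 83080855), the PCGF protein of the KDM2B complex, had 14.0, 15.6, 12.9 and 15.7 RPKM. The canonical subunit gene Pcgf2 (ENSMUSG00000018537, chromosome 11, 97688823 to 97700497) had 8.95, 9.94, 11.3 and 10.4 RPKM. These 3 genes kept this order in every library, and none of their ranges overlapped as deposited. Pcgf5 (ENSMUSG00000024805, chromosome 19, 36348309 to 36460970), which acts in complexes like those of PCGF3, had 4.88, 4.47, 4.57 and 3.94 RPKM, the lowest mean of the 10 genes.

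The deposited order of the PCGF genes was Pcgf6, Pcgf3, Pcgf1, Pcgf2, Bmi1 and Pcgf5, and each gene was above the next in 4 of 4 libraries (same exact permutation test, p = 0.13 for each of these 5 pairs). By exon length the middle of this order was lost. Pcgf3, whose exons span 9544 bp against the 2169 bp used, fell to 5.24 ± 0.468, beside 5.06 ± 0.495 for Pcgf2, 4.85 ± 0.448 for Pcgf1 and 5.27 ± 0.349 for Bmi1 (SD, n = 4 each). The difference of Pcgf1 minus Pcgf2 went from 0.51 ± 0.22 as deposited to -0.060 ± 0.22 by exon length, while Pcgf1 stayed higher in 3 of 4 libraries, and that of Pcgf2 minus Bmi1 from 0.79 ± 0.15 to -0.062 ± 0.15 (log2, SD, n = 4). Pcgf5 remained the lowest on both scales, at 2.28 ± 0.200 by exon length (SD, n = 4), below Bmi1 in 4 of 4 libraries.

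Cbx7 (ENSMUSG00000053411, chromosome 15, 79915807 to 79971119), the CBX protein that predominates in undifferentiated ESCs, had the highest level of the 10 genes. It stood at 63.0, 75.9, 76.1 and 64.6 RPKM in replicates 1 to 4, with replicates 2 and 3 above the others. Of the summed deposited level of the 4 CBX genes Cbx2, Cbx6, Cbx7 and Cbx8, Cbx7 held 65.3% ± 0.732 and Cbx2 31.8% ± 0.807 (SD, n = 4 each). By exon length these shares were 79.3% ± 0.411 and 15.5% ± 0.498 (SD, n = 4 each). Cbx6 and Cbx8 were each under 4% on either scale, at 2.25% ± 0.0330 and 0.699% ± 0.102 as deposited (SD, n = 4 each).

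Rybp (ENSMUSG00000072872, chromosome 6, 100228565 to 100287485), the subunit that takes the place of the canonical CBX proteins in variant complexes, had 4.55, 5.10, 5.85 and 3.58 RPKM. Its homologue Yaf2 had 15.3 ± 0.841 RPKM (SD, n = 4) and was higher in 4 of 4 libraries, by 1.68 ± 0.28 as deposited and by 1.59 ± 0.28 by exon length (log2, SD, n = 4; same exact permutation test, p = 0.13 as deposited). Cbx7 was above Rybp by 3.86 ± 0.20 as deposited and by 2.77 ± 0.20 by exon length, in 4 of 4 libraries (log2, SD, n = 4). Kdm2b (ENSMUSG00000029475, chromosome 5, 122870665 to 122989823), the CpG-binding subunit and histone demethylase, had 5.78, 6.82, 7.13 and 5.91 RPKM, below Pcgf1 in 4 of 4 libraries on both scales. The value of Kdm2b is one per gene, so transcripts from its upstream and internal starts are not separated.

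**Figure D2:**
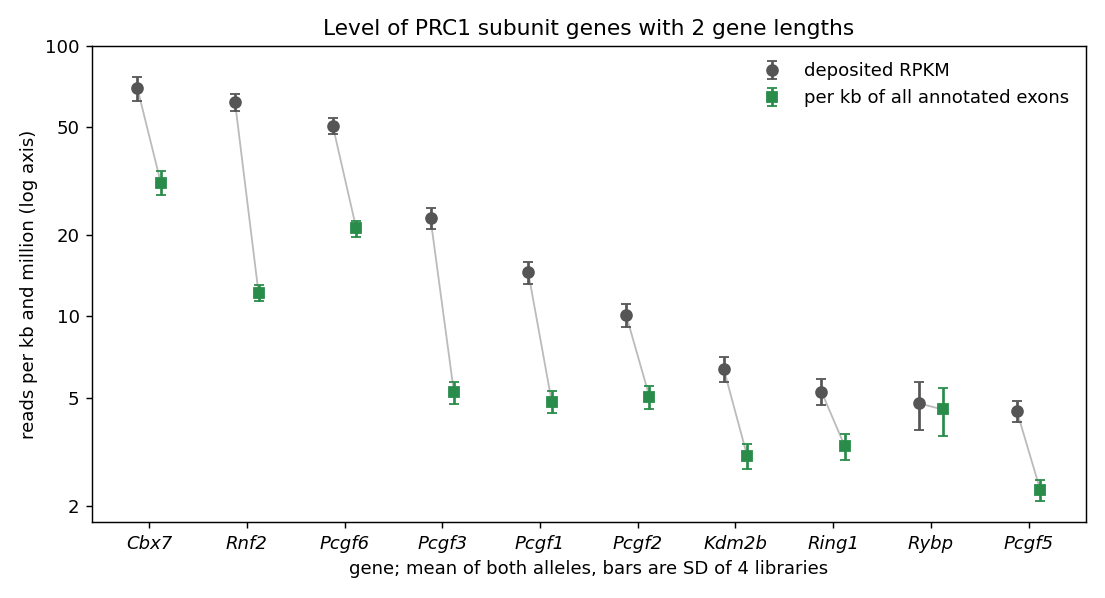
Level of each PRC1 subunit gene (log axis, scaled reads per kilobase, mean of both alleles ± SD of 4 libraries) with the length behind the deposited RPKM (circles) and with the length of all annotated exons (squares). Rnf2, Pcgf3 and Pcgf1 moved down most, and Rybp, with 4503 bp and 4740 bp, hardly moved.

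In the deposited order of all 10 genes, Cbx7 and Rnf2 had overlapping ranges, with Cbx7 higher in 3 of 4 libraries by 0.17 ± 0.15 (log2, SD, n = 4). The ranges also overlapped for Ring1 and Rybp (0.16 ± 0.20, 3 of 4 libraries) and for Rybp and Pcgf5 (0.075 ± 0.23, 2 of 4 libraries). All other neighbours in the order had ranges that did not overlap. By exon length the order became Cbx7, Pcgf6, Rnf2, Pcgf3, Pcgf2, Pcgf1, Rybp, Ring1, Kdm2b and Pcgf5, and the ranges of each pair of neighbours from Pcgf3 to Kdm2b overlapped. The first place is not settled, because at 2 times its smallest length Pcgf6 would stand at 42.3, above Cbx7 at 31.2.

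The alleles of each gene were then compared, and both alleles share 1 gene length, which enters only through the added 0.1 RPKM and the filter. Differences S129 minus CAST of log2(RPKM+0.1) were formed within each library and tested with limma, and 13341 genes whose allele means added up to 1 RPKM or more entered the test. A gene with a Benjamini-Hochberg adjusted p under 0.05 was called. All 10 genes passed this filter. Of them, 6 were called, 4 with a higher S129 allele (Rybp, Rnf2, Pcgf5 and Ring1) and 2 with a higher CAST allele (Kdm2b and Pcgf2). Over the 12869 autosomal genes tested, 61.4% were called, 28.9% with S129 and 32.5% with CAST higher. With the X chromosome these shares were 62.7%, 31.4% and 31.3%, and without chromosomes 3, 6, 8 and 16, whose medians leaned to one allele, 58.2% were called. Thus calls among the PRC1 subunits were about as frequent as elsewhere. The median absolute difference was 0.33 over the 10 genes and 0.29 over the autosomal genes (log2). The median signed difference was 0.036 and -0.021, respectively. Rescaled to the same autosomal sum of RPKM, the median over the autosomal genes moved by 0.10 toward S129, and S129 was higher in 60.2% instead of 47.1% of the autosomal calls.

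Rybp had the largest difference of the 10 genes. Its S129 allele had 6.64, 6.81, 8.07 and 5.07 RPKM in replicates 1 to 4, and its CAST allele 2.46, 3.39, 3.64 and 2.10 RPKM. The lowest S129 value was above the highest CAST value. The S129 allele was 2.27-fold higher (log2 difference 1.18 ± 0.077 SE, limma adjusted p = 0.00036, 4 of 4 libraries). Rybp was the only 1 of the 10 genes called and past 2-fold, as were 11.9% of the autosomal genes tested. Its difference was larger in size than that of 90.4% of them. The 95% interval of its fold, 1.97 to 2.62, included 2-fold. With 1 RPKM added instead of 0.1, the log2 difference of Rybp was 0.98. After subtracting chromosome medians it was also 0.98, both under 2-fold. In whole reads, S129 held 73.6% of 1169 reads in replicate 1 (exact 95% binomial interval 70.9% to 76.1%, counting error only) and 67.7% of 1163 reads in replicate 2 (64.9% to 70.4%). Chromosome 6 as a whole leaned to S129, with a median log2 difference of 0.19 over its 636 tested genes, and Rybp exceeded this by 0.99. Of the 3 tested genes that start within 500 kb, 2 were called, both with S129 higher, at a median of 0.37 for the 3. The part of the chromosome's lean in the difference of Rybp was not tested beyond taking out the median.

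Both catalytic subunits were higher on S129. For Rnf2 the S129 allele had 76.1, 76.0, 73.0 and 65.5 RPKM, and the CAST allele 53.6, 48.2, 56.7 and 45.5 RPKM, without overlap. The fold was 1.43 (log2 difference 0.51 ± 0.056 SE, limma adjusted p = 0.00185, 4 of 4 libraries). Chromosome 1 had a median of -0.0073. Of the 7 tested genes that start within 500 kb of Rnf2, 5 were called, 4 with S129 and 1 with CAST higher. The median difference of the 7 was 0.27 (log2). An exon of Rnf2 overlaps 158 bp of Trmt1l on the opposite strand, which was itself higher on S129 by 0.27 (log2, adjusted p = 0.00848 from limma), and whether the counting used the strand that the library kit marks is not given in the sources used here.

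For Ring1 the S129 allele had 6.99, 6.47, 5.83 and 5.08 RPKM and the CAST allele 4.47, 4.49, 5.12 and 3.76 RPKM. The ranges overlapped, since the CAST value of replicate 3 was above the S129 value of replicate 4, but S129 was higher within each library. The fold was 1.36 (log2 difference 0.44 ± 0.084 SE, limma adjusted p = 0.0106). The difference ran from 0.18 in replicate 3 to 0.63 in replicate 1, the former from 537 reads and the latter from 662. No exon of another annotated gene overlaps those of Ring1. Chromosome 17 had a median of -0.048. Of the 36 tested genes that start within 500 kb of Ring1, 20 were called, 15 with S129 and 5 with CAST higher. The median difference of the 36 was 0.095 (log2).

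Of the PCGF genes, Pcgf5 had the clearest difference. Its S129 allele had 5.68, 5.17, 5.14 and 4.72 RPKM and its CAST allele 4.08, 3.78, 4.00 and 3.17 RPKM, without overlap. S129 was 1.37-fold higher (log2 difference 0.46 ± 0.045 SE, limma adjusted p = 0.00131, 4 of 4 libraries), on chromosome 19 with a median of -0.074. Exons of Pcgf5 overlap 60 bp of F530104D19Rik on the opposite strand, for which no value was listed. Pcgf6, also on chromosome 19, had 51.7, 52.6, 49.8 and 43.7 RPKM on S129 and 52.9, 54.1, 53.2 and 47.7 RPKM on CAST, with overlapping ranges.

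In RPKM, Pcgf2 was higher on CAST in 4 of 4 libraries, by 1.17-fold (log2 difference -0.23 ± 0.063 SE, limma adjusted p = 0.0336). Its S129 allele had 7.92, 8.83, 11.2 and 9.59 RPKM and its CAST allele 9.98, 11.0, 11.5 and 11.2 RPKM, and replicate 3 held the smallest difference, -0.034. In whole reads replicate 3 had 483 on S129 and 476 on CAST, so its direction rests on dividing each allele by its own total. The call of Pcgf2 was lost without replicate 1 (adjusted p = 0.111), replicate 2 (adjusted p = 0.116) or replicate 4 (adjusted p = 0.0869, all from limma). It was also lost without the pairing of alleles by library (adjusted p = 0.126 from limma) and after rescaling to the same autosomal sum (adjusted p = 0.168 from limma).

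Kdm2b differed most toward CAST. The S129 allele had 4.78, 5.25, 5.82 and 4.39 RPKM and the CAST allele 6.78, 8.39, 8.44 and 7.44 RPKM, without overlap. CAST was 1.53-fold higher (log2 difference -0.61 ± 0.056 SE, limma adjusted p = 0.00105, 4 of 4 libraries), on chromosome 5 with a median of 0.0069. S129 held from 38.1% of 1040 reads in replicate 4 (exact 95% binomial interval 35.1% to 41.1%) to 42.1% of 1690 reads in replicate 1 (39.8% to 44.5%). Exons of Kdm2b overlap 627 bp of Rnf34 and 199 bp of A930024E05Rik, both on the opposite strand, whose differences were -0.022 (adjusted p = 0.719) and 0.24 (adjusted p = 0.108, both from limma). Neither was called. A further 124 bp overlap Gm44574 on the same strand, which strand cannot separate and for which no value was used here.

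**Figure D3:**
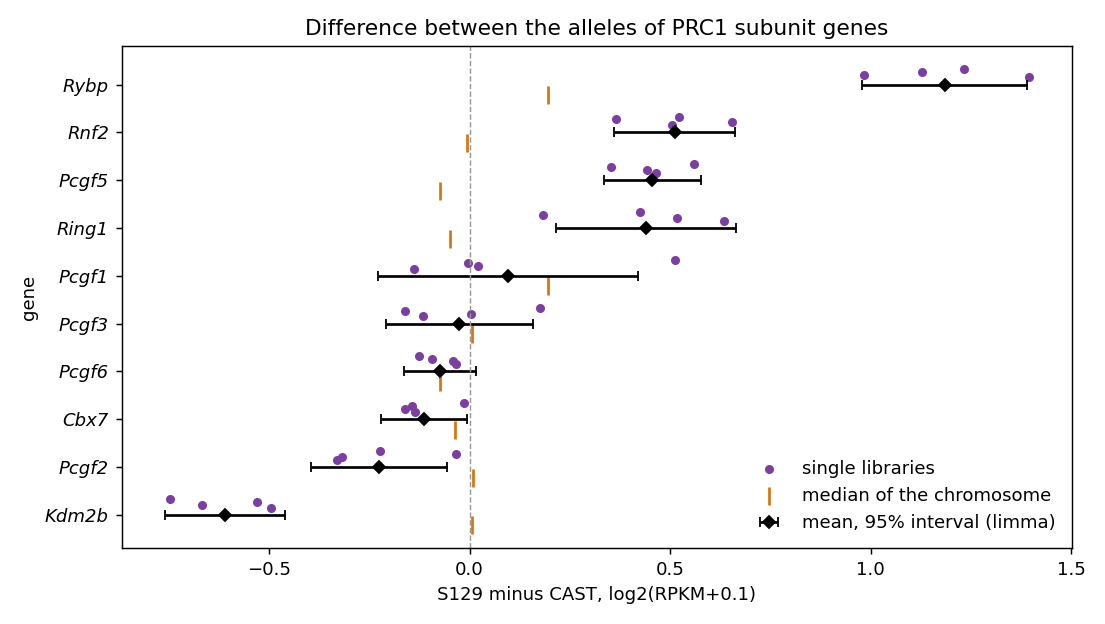
Difference S129 minus CAST of log2(RPKM+0.1) for each PRC1 subunit gene, as the mean with its 95% interval from limma (diamonds), in single libraries (dots) and beside the median of the tested genes on the same chromosome (orange lines). Rybp stands at 1.18 and Kdm2b at -0.61, each far from the median of its chromosome.

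The other 4 genes were not called. Cbx7 had 60.0, 71.6, 72.3 and 64.3 RPKM on S129 and 66.0, 80.2, 79.9 and 64.9 RPKM on CAST. In RPKM, CAST was higher in 4 of 4 libraries, by a log2 difference of -0.11 (95% interval -0.22 to -0.0068, limma adjusted p = 0.0636). Replicate 4 had the smallest difference, -0.013. In whole reads it had 3246 on S129 and 3146 on CAST, so its direction rests on dividing each allele by its own total. Cbx7 was called without replicate 4 (-0.15, limma adjusted p = 0.0302), and with all 4 libraries under a variance trend in limma (adjusted p = 0.0185) or a filter at 5 RPKM (limma adjusted p = 0.0424). Rescaled to the same autosomal sum, its difference shrank to -0.011 (limma adjusted p = 0.831). After subtracting chromosome medians it was -0.078 (limma adjusted p = 0.158), so the size of this difference depends on the scaling. In the main fit, the difference of Pcgf6 was -0.074 (95% interval -0.16 to 0.016), that of Pcgf3 -0.025 (-0.21 to 0.16) and that of Pcgf1 0.097 (-0.23 to 0.42). Differences within these intervals cannot be set aside, which for Pcgf1 includes a fold of 1.34 toward S129.

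Pcgf1 had the widest spread. It stood at 13.3, 15.7, 12.9 and 18.5 RPKM on S129 and at 14.6, 15.5, 13.0 and 13.0 RPKM on CAST, so that only replicate 4 had a clearly higher S129 allele. There S129 held 59.8% of 296 reads (exact 95% binomial interval 54.0% to 65.4%), against 48.4% of 434 reads in replicate 1 (43.6% to 53.2%). Without replicate 4 its difference was -0.041. Pcgf3 was higher on S129 in 2 of 4 libraries, with 21.4, 24.3, 23.7 and 21.7 RPKM on S129 and 23.2, 24.3, 26.5 and 19.3 RPKM on CAST. Pcgf1 and Rybp share chromosome 6 and the lean of that chromosome to S129, and Pcgf1 lay below its median by 0.098, while Rybp lay above it.

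Without overlap between the 4 values of each allele were Rnf2, Pcgf5, Rybp and Kdm2b, 4 of the 10 genes, where 43.6% of the autosomal genes tested had no overlap.

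**Figure D4:**
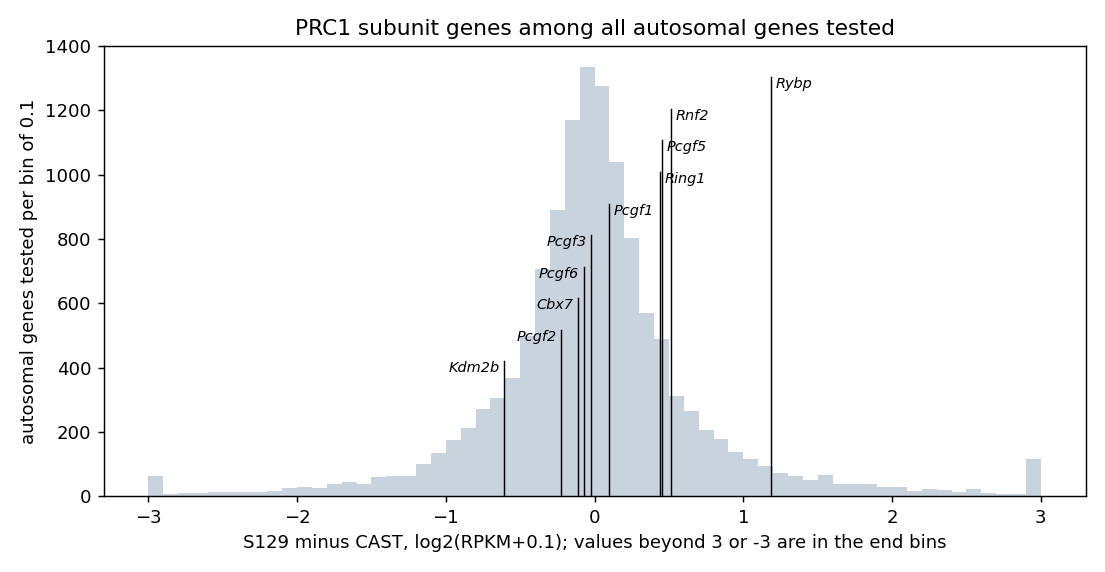
Number of autosomal genes tested (vertical axis) by their difference S129 minus CAST of log2(RPKM+0.1), in bins of 0.1, with the 10 PRC1 subunit genes marked by lines of arbitrary height. Rybp lies toward the tail, larger in size than 90.4% of the 12869 genes, and the other genes lie nearer the middle.

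The other genes of the complexes were taken from 6 lists with 34 genes. Of these, 3 are X-linked, 2 were listed at 0 in every column and 29 autosomal genes were tested. Among the 29, 10 were higher on S129, 6 higher on CAST and 13 not called, a share called of 55.2% beside the 61.4% of all autosomal genes, and their median difference was 0.052 (log2). Rescaled to the same autosomal sum, 14 were higher on S129 and 4 on CAST, so that the balance depends on the scaling. The counts per list below rest on 1 to 9 tested autosomal genes. They were not tested against the shares over all autosomal genes, 28.9% with S129 and 32.5% with CAST higher. The 2 genes listed at 0 were Csnk2b and Fbrs, and nothing is said of their expression.

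Canonical PRC1 genes apart from the members ranged from 0.744 RPKM for Cbx8, whose protein is a CBX reader, to 39.9 RPKM for Phc1, whose protein joins complexes to each other. Of the 8 tested, 5 were higher on S129 and 1 on CAST, beside 28.9% and 32.5% of all autosomal genes tested. Cbx6 had the largest difference toward S129, at 2.90 ± 0.301 against 1.91 ± 0.270 RPKM on CAST (SD, n = 4; log2 difference 0.59, adjusted p = 0.00754 from limma). Scmh1 was higher on CAST, at 3.59 ± 0.464 against 2.28 ± 0.123 RPKM on S129 (SD, n = 4; log2 difference -0.62, adjusted p = 0.00402 from limma). The 3 PHC genes were each higher on S129, by 0.19 for Phc1, 0.27 for Phc2 and 0.33 for Phc3 (log2). The value of Phc1 equals the median of its chromosome 6, 0.19, while Phc3 lies on chromosome 3 with a median of -0.74.

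In the complex of PCGF1 and KDM2B, both autosomal partners were higher on S129. The deubiquitinase gene Usp7 had 42.8 ± 3.74 RPKM on S129 and 27.1 ± 2.71 RPKM on CAST (SD, n = 4), a log2 difference of 0.66 on chromosome 16, where the median was 0.69. Skp1a, the highest of this list at 165 ± 18.8 RPKM (SD, n = 4), was higher on S129 by 0.23 (log2, adjusted p = 0.0323 from limma). The corepressor genes Bcor and Bcorl1 of this complex and the canonical gene Scml2 lie on the X chromosome, which the male cells carry from S129. Bcor had 4124 reads on S129 and 4 on CAST over the 4 libraries, Scml2 had 1371 and 1, and Bcorl1 had 389 and 0. The reads on CAST are those assigned to an allele that the X chromosome of these cells lacks.

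Of the 5 tested partners of the complexes with PCGF3 or PCGF5, Csnk2a1, a catalytic subunit of casein kinase II, had the largest difference toward S129 (log2 difference 0.50) and the highest level, 33.7 ± 3.91 RPKM (SD, n = 4). Auts2, which had the lowest level above 0, 0.636 ± 0.103 RPKM (SD, n = 4), was higher on CAST (log2 difference -0.47). Fbrsl1 was also higher on S129, and Dcaf7 and Csnk2a2 were not called. The partners in the PCGF6 complex had the highest median level of the lists, 90.5 RPKM, from 5.69 ± 0.670 RPKM for the repressor E2f6 to 201 ± 31.2 RPKM for Cbx3, a reader of methylated histone H3 (SD, n = 4 each). By exon length Cbx3 stood at 36.2, below Hdac1 at 65.4, Tfdp1 at 64.6 and Hdac2 at 40.6. Of these 9 genes, 4 were higher on CAST and 1, Hdac2, was higher on S129 at 0.12 (log2). Of the 4, Cbx3 came first at -0.36 on chromosome 6, against the lean of its chromosome. Tfdp1 followed at -0.31 on chromosome 8, where the median was -0.25. Yaf2 was not called (log2 difference -0.14, adjusted p = 0.0547 from limma). The 4 genes for removal of ubiquitin from H2A ran from 4.98 ± 0.245 RPKM for Asxl2 to 19.4 ± 1.53 RPKM for Bap1 (SD, n = 4 each). Of them 0 were called, where 61.4% of all autosomal genes tested were called.

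**Figure D5:**
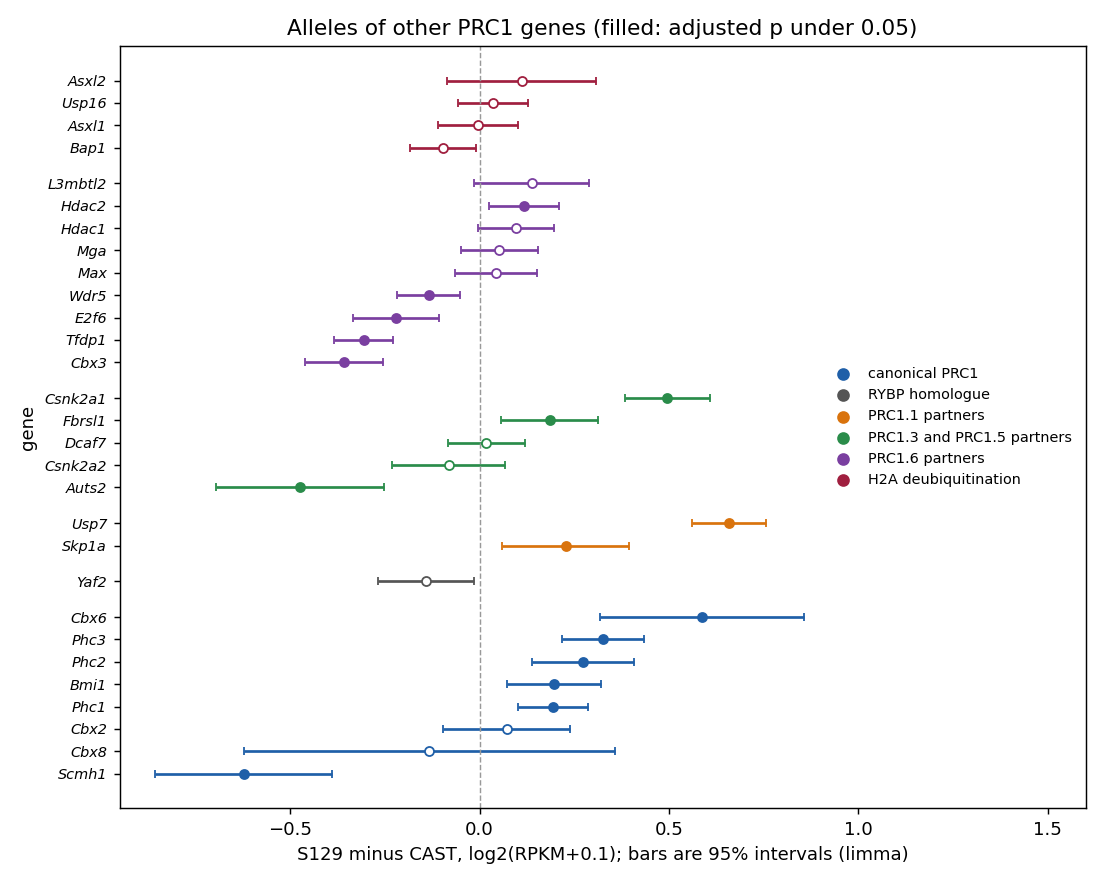
Difference S129 minus CAST of log2(RPKM+0.1) with its 95% interval from limma for the 29 tested autosomal genes of the 6 lists. Filled circles mark the 16 genes with adjusted p under 0.05, from Scmh1 at -0.62 to Usp7 at 0.66.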

How the data were processed

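RNAseq of polyA RNA from 4 libraries of untreated F123-ESCs was used, replicates 1 to 4. The authors filtered ribosomal RNA with SortMeRNA 2.1, trimmed with Trimmomatic 0.40, aligned with STAR 2.6 to mm10 masked at SNPs, divided reads by SNPsplit, and deposited RPKM for each gene, allele and library. They also deposited average RPKM and log10 of the average plus 1, which were not used. The program that counted reads and its annotation are not given in the sources used here.

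Totals of reads per allele, 16716721 to 28772351, were recovered from the steps between RPKM values. Of 20243 genes above 0, 94.5% were whole within 0.02 reads with a length annotated in GENCODE M21 (mm10); for Pcgf6, lengths from 50 to 30000 bp were searched. Alleles were compared with limma 3.58.1 (R 4.3.3) on paired differences. Values of the same library deviated together (correlations of 0.105 to 0.195 over 13341 genes, and -0.155 to 0.140 between different libraries), and the pairing comes from both alleles being reads of one library. Ratios between genes were tested by exact sign-flips. The limma fit and the recovery were tested on simulated data. The data simulated for the fit held few changed genes and no chromosome leaning to one allele, so the share of false calls in the real data was not tested.

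The 10 genes and the lists were chosen with earlier results of these data known. A further gene of the lists is not reported here. Named are all 10 genes and, per list, the highest and lowest level and the largest called difference in each direction; Phc1, Phc2, Phc3, Fbrsl1, Dcaf7, Csnk2a2, Hdac1, Tfdp1 and the overlapping genes were added with their values already seen. Alternatives were other pseudocounts, filters, scalings and lengths, a variance trend, no pairing and each library left out.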

Additional observations from a re-analysis of the deposited data

How the results depend on the processing

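Of 120 differences between the alleles of single genes under alternatives, 104 had the same direction and call as in the report, and Rybp, Rnf2, Ring1, Pcgf5 and Kdm2b did so in every one of these fits. Sign changes were limited to genes that were not called: Pcgf3 (0.077 rescaled to the same autosomal sum, 0.0054 without replicate 1, 0.020 without replicate 3, in a range from -0.092 to 0.020 with a library left out), Pcgf6 (0.029 rescaled) and Pcgf1 (-0.11 after subtracting chromosome medians, from -0.041 without replicate 4 to 0.18 with a library left out). Genes with a higher CAST allele numbered 1 instead of 2, namely Kdm2b, with no filter, after rescaling and without pairing by library (no replicate block). An alternative chosen after seeing the data left out Rnf2, Kdm2b and Cbx7, whose exons overlap another listed gene. There the 1 called with CAST higher was Pcgf2, and 3 were called with S129 higher. Genes with a higher CAST allele numbered 3 with a filter at 5 RPKM (Cbx7 added) and 4 with a variance trend (Cbx7 and Pcgf6 added). With each library left out they numbered 1 to 2, where the 2 without replicate 4 were Kdm2b and Cbx7. Over the 12869 autosomal genes, 3721 and 4180 were called on S129 and CAST in the report. These became 3843 and 4367 with a variance trend and 4654 and 3071 after rescaling. With a library left out they were 3002 to 3488 and 3379 to 3947. With other numbers of genes tested, they were 3045 and 3539 (filter at 5 RPKM) and 3842 and 4167 (no filter). Of the 29 partner genes, 5 and 3 instead of 10 and 6 were called on S129 and CAST without the replicate block (46.3% of all autosomal genes were then called), 14 and 4 after rescaling, 12 and 8 with a variance trend, and from 6 (without replicate 3) to 8 were higher on S129 and from 5 to 6 on CAST with a library left out. The median level was 4.95 in place of 12.4 by exon length, also with Pcgf6 at 2 times its length, and this length reversed Pcgf1 over Pcgf2 (-0.060) and Pcgf2 over Bmi1 (-0.062). The other 88 of 90 ratios between genes kept their direction. Depth limits Pcgf1 and Ring1 most, with 119 and 128 reads in their lowest column. Dixon's criterion, applied to 20 levels and differences, found 0 libraries far from the others, where chance gives about 1.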
